A study of Mus musculus with 15 samples.

Results

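Bone marrow progenitors labelled as lacking Dnmt3a and carrying Idh2 R140Q were compared with megakaryocyte-erythroid progenitors (MEP) labelled as carrying Idh2 R140Q with Dnmt3a not deleted. Group names below follow these labels. Members were chosen by genotype and sorted cell type, which gave 5 of the 15 mouse libraries: 3 double mutant libraries and 2 Idh2 R140Q MEP libraries. The question set by this pair is what loss of Dnmt3a did to DNA methylation when the Idh2 mutation was already present. The labelled genotypes were Mx1-cre+;Dnmt3a-/-;Idh2 R140Q for the double mutant and Mx1-cre-;Dnmt3af/f;Idh2 R140Q for the Idh2 R140Q MEP, so by the labels Idh2 R140Q was shared and the floxed Dnmt3a alleles of the second group met no cre. All mice were C57BL/6, and both groups were sorted freshly with the same surface markers (lineage negative, cKit positive, and negative for Sca1, CD34 and Cd16/32). The labels call the double mutant cells malignant haematopoietic stem and progenitor cells and the Idh2 R140Q cells primary MEP, so malignant state and Dnmt3a genotype cannot be told apart. Mx1-cre is an interferon-induced driver that acts in blood cells and in other tissues. Each library is labelled a biological replicate, without a statement of the animals behind it, of pooling or of age. For context, 2 Dnmt3a knockout MEP libraries (Mx1-cre+;Dnmt3a-/-) and 2 wild type MEP libraries, together with granulocyte-macrophage progenitors (GMP) of 3 genotypes, were read in the same way.

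Dnmt3a is one of the enzymes that place new methyl groups on CpG dinucleotides, while Dnmt1 copies existing methylation at replication. Idh2 R140Q makes 2-hydroxyglutarate, which inhibits oxoglutarate-dependent dioxygenases, among them the Tet enzymes that start the removal of DNA methylation. Both genes are recurrently mutated in acute myeloid leukaemia. Reduced representation bisulfite sequencing, used here, reads mostly CpG-rich DNA cut by MspI at CCGG, and the share of unconverted reads at a CpG is its methylation level.

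The DNA stretches below show what a large change looked like, with each CpG measured in all 5 libraries in capitals. They are plus-strand mm9 sequence, 5′ to 3′. The first set holds windows with large gains in the double mutant, taken in order of size and leaving out windows whose stretch is not printed.
Ptger1, chr8:86192517-86192565: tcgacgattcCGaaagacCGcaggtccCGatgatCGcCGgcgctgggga
Gabra5, chr7:64764632-64764789: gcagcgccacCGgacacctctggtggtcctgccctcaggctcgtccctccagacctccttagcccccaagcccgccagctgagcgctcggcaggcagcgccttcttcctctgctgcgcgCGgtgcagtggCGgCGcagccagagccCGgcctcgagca
1700048O20Rik, chr9:121847357-121847537: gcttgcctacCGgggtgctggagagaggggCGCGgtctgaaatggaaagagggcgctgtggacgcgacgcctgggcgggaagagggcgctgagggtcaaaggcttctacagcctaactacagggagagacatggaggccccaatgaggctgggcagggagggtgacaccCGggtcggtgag
In the Ptger1 stretch, which lies in a coding exon, the 5 CpGs ranged from 57.9% to 100% over the double mutant libraries and from 1.47% to 26.7% over the Idh2 R140Q libraries. At the first of these CpGs the double mutant libraries were all at 100%, against 26.7% and 2.94%. No CpG of the Ptger1 or Gabra5 stretch overlapped between the groups, on 14 to 70 reads per library and CpG. Their windows were chosen among those without overlap.

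The second set holds the windows with the largest losses.
Fbxo31, chr8:124094698-124094822: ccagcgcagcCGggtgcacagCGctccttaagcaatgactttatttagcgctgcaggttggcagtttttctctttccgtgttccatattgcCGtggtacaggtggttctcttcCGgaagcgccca
Fry, chr5:151246660-151246839: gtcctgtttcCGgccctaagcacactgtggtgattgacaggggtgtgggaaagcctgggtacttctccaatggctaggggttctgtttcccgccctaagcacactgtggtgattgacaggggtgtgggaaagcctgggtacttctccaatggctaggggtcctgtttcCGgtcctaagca
Il10, chr1:132907303-132907501: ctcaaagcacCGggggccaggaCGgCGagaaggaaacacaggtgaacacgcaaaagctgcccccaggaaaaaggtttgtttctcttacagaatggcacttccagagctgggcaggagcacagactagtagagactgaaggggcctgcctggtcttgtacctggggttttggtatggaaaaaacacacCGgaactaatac
The 4 CpGs of the Fbxo31 stretch, in an intron, were at 0% to 5.68% in the double mutant libraries and at 64.3% to 100% in the Idh2 R140Q libraries. The Il10 stretch shows an edge. Its first 3 CpGs averaged 2.73%, 1.09% and 1.54% in the double mutant against 95.8%, 97.1% and 98.6%, while its last CpG, at position 188 of the stretch, averaged 95.0% against 97.8%.

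Another set was chosen after its values were seen, because Itga2b, which encodes the CD41 integrin of megakaryocytes and early progenitors, held one of the largest gains and one of the largest losses.
Itga2b gain, chr11:102317233-102317396: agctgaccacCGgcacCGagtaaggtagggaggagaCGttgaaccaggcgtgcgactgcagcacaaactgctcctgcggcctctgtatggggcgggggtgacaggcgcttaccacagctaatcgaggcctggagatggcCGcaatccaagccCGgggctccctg
Itga2b loss, chr11:102329577-102329857: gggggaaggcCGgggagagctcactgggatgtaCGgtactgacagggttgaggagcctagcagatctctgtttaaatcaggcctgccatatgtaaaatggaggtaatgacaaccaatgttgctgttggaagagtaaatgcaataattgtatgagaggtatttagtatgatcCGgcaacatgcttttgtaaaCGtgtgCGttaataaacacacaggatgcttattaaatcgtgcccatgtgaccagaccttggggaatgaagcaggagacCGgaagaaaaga
The gained stretch went from 0% to 9.52% per CpG and library in Idh2 R140Q MEP to 37.9% to 93.8% in the double mutant. The lost stretch went from 82.8% to 100% down to 0% to 39.0%.

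After the filter on depth, 368679 autosomal CpGs had at least 10 reads in all 5 libraries. The deposited tables held 28001420, 31657332 and 29884646 reads for the double mutant and 19536034 and 24587340 for Idh2 R140Q MEP, with median depths per CpG of 38, 43 and 40 against 27 and 35 reads. Reads of 1 fragment share their ends, so copies made by PCR cannot be recognised and counting error is a lower limit. The 2 groups had like shares of X-linked reads (1.28% to 1.47% of autosomal reads against 1.27% and 1.29%), whereas wild type MEP had 2.21% and 2.25% against 1.17% and 1.29% in knockout MEP. Wild type GMP had 2.23% in both libraries against 1.23% and 1.43% in Idh2 R140Q GMP. In every comparison with wild type libraries, sex and genotype cannot be told apart. The double mutant library 2 stood apart in relative depth, at 1.04 to 1.06 on 7 chromosomes and 0.965 to 0.979 on 12. Methylated reads on mitochondrial DNA, which is largely unmethylated, made up 0.912% to 1.56% in the double mutant and 1.12% and 0.280% in Idh2 R140Q MEP.

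The targeted genes were read first. The 15 measured CpGs of the Dnmt3a promoter were at 1.21%, 1.11% and 1.04% in the double mutant and at 1.10% and 0% in Idh2 R140Q MEP. The Idh2 promoter was at 0.461%, 0.249% and 0.576% against 0% and 0.167%, and neither promoter passed the test. A 1 kb window within the Dnmt3a gene that held 6.93 and 8.40 RPM (of autosomal reads) in wild type MEP and 0.427 and 1.73 in knockout MEP held 0.145, 0.0320 and 0 in the double mutant, and 0 and 0.165 in Idh2 R140Q MEP. Both Idh2 R140Q MEP libraries were thus at or below the knockout MEP libraries and far below wild type. GMP were alike, at 6.68 and 7.17 RPM in wild type, 1.37 and 1.87 in knockout and 0.224 and 1.21 in Idh2 R140Q. Over the whole gene, Idh2 R140Q MEP held 95.8 and 104 RPM, wild type MEP 101 and 101, and knockout MEP 137 and 114. The double mutant held 97.6, 88.5 and 86.5. The labels do not say whether the window lies in the floxed part, and why its depth differed was not tested. Read depth in the window did not separate the 2 groups compared, so the difference in Dnmt3a genotype between them rests on the labels alone.

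Mean CpG methylation was higher in the double mutant. The 3 libraries averaged 47.0%, 47.7% and 46.4% over all CpGs, and the 2 Idh2 R140Q MEP libraries 44.3% and 43.7%. The groups did not overlap, with a difference of 3.03 percentage points (47.0 ± 0.623 against 44.0 ± 0.451, SD) and p = 0.1 in the exact two-sided permutation test, the smallest p that 3 against 2 libraries can give. Taking methylated over all reads, which gives deep CpGs more weight, the difference was 8.33 points. By reads it was 3.19, 2.94 and 3.21 points at CpGs below 20%, from 20% to 80% and above 80% in wild type MEP. The 8.33 points exceed the difference in each class, so they also carry how reads were spread over the classes. Knockout MEP, at 42.8% and 44.7%, and wild type MEP, at 42.01% and 43.8%, overlapped.

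**Figure D1:**
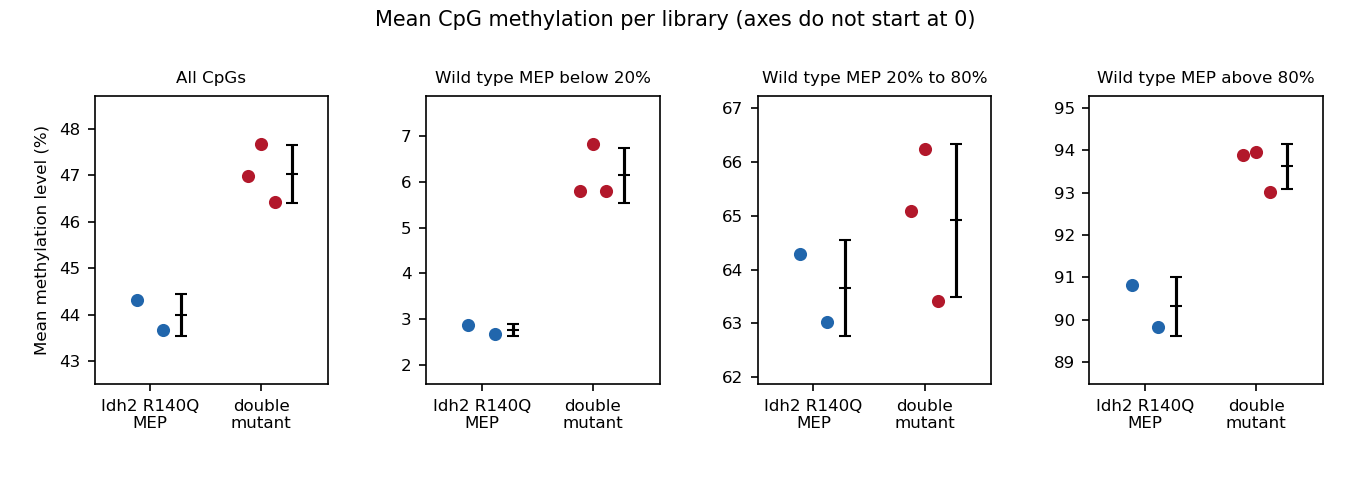
Mean methylation level (%) per library over all CpGs and over 3 classes of CpG set by their level in wild type MEP. Points are libraries, and bars give the mean and SD beside them. The double mutant libraries lie above both Idh2 R140Q MEP libraries in every panel except the class from 20% to 80%, where the groups overlap.

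The gain lay at both ends of the methylation range. CpGs were classed by their level in the wild type MEP libraries, which took no part in the comparison. At 177613 CpGs below 20% in wild type, the double mutant libraries averaged 5.79%, 6.82% and 5.80% against 2.87% and 2.68%. At 136779 CpGs above 80%, they averaged 93.9%, 94.0% and 93.0% against 90.8% and 89.8%. Neither class overlapped between the groups, and the differences were 3.36 and 3.31 points (each p = 0.1 in the exact permutation test, 0.15 adjusted over 3 classes). The 51389 CpGs between 20% and 80% overlapped, at 65.1%, 66.2% and 63.4% against 64.3% and 63.0% (1.25 points, p = 0.4, exact permutation test), and by reads this class differed by 2.94 points.

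The direction in that middle class turned on the CpGs of CCGG sites, where the enzyme cuts. Without them, its 17467 remaining CpGs were at 58.6%, 60.1% and 58.1% in the double mutant and 59.9% and 60.03% in Idh2 R140Q MEP, which overlapped, a difference of -1.04 points (p = 0.4, exact permutation test). The other classes kept their direction, at 2.95 and 1.97 points. This alternative was added after the data had been seen.

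The gain was found in every kind of place in the genome, between 2.41 points in introns and 3.68 points at CpGs over 20 kb from a start site. CpGs within 1 kb of a start site averaged 12.7% ± 0.510 against 9.79% ± 0.201. CpGs in introns averaged 74.97% ± 0.815 against 72.6% ± 0.758, and intergenic CpGs 72.0% ± 0.740 against 68.3% ± 0.657. CpGs with more than 60 CpGs in the surrounding 1 kb averaged 6.32% ± 0.534 against 2.82% ± 0.148, and those with fewer than 20 averaged 82.4% ± 0.828 against 79.8% ± 1.03. In each of the 13 classes of place, distance and density the groups did not overlap (p = 0.1 in the exact permutation test, also after adjustment). Downstream of start sites the difference was 2.83 points in the first 500 bp and 4.13 points between 500 and 1000 bp.

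The base that follows the CpG separated the groups where the overall mean of the middle class did not. Enzymes of the Dnmt3 family are known to differ in their preference for the flanking base, so levels at CpGs followed by C or T were set against levels at CpGs followed by A or G within each library, in the middle class and outside CCGG sites. Strands were summed, so each CpG entered with the same level for the base after it on either strand. A CpG could thus enter both sides, and no level of a single strand was measured. This measure was -4.08, -4.09 and -3.95 points in the double mutant and -1.45 and -1.26 in Idh2 R140Q MEP, a difference of -2.68 points (p = 0.1, exact permutation test). Knockout MEP were at -2.73 and -2.38, and wild type MEP at -0.749 and -1.07. Split by base, the double mutant was lower by 2.85 points before T (60.4% against 63.2%) and differed by -1.80 before C, -0.290 before G and 1.17 before A. Only the values before G overlapped between the groups. Knockout minus wild type MEP was 1.41 points before T, the opposite sign, and -3.25 before C, -0.576 before G and 1.59 before A. The knockout and wild type MEP libraries overlapped at each base.

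**Figure D2:**
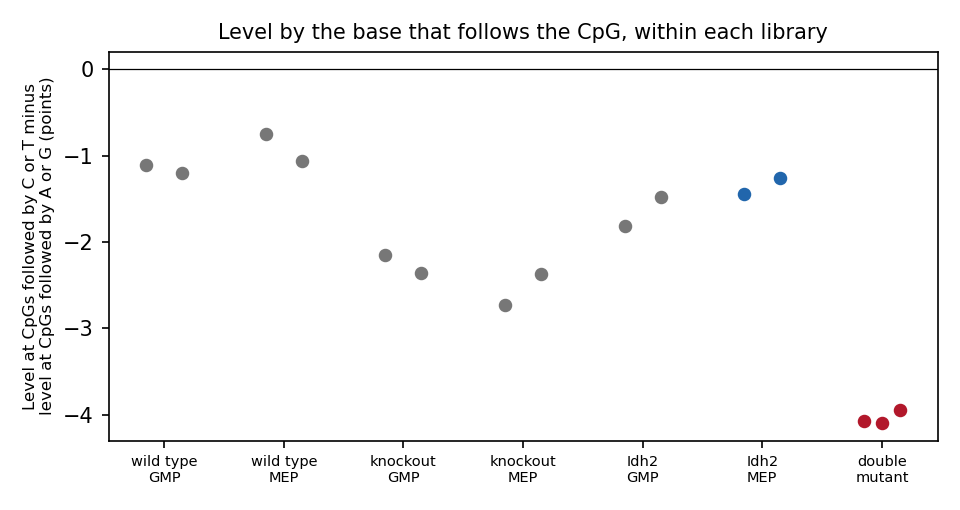
Mean level at CpGs followed by C or T minus the mean level at CpGs followed by A or G, in percentage points, for all 15 libraries (points). CpGs had a wild type MEP level of 20% to 80% and lay outside CCGG sites. Each CpG entered with the level of both strands summed for the base after it on either strand, so a CpG could enter both sides. The 3 double mutant libraries lie between -4.09 and -3.95, below every other library.

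Reads of the same CpG were also compared with each other. The chance that 2 reads drawn from 1 CpG differ, averaged over CpGs, is low where all cells carry the same state and does not depend on depth. At CpGs above 80% in wild type it was 9.79%, 9.87% and 10.9% in the double mutant and 15.5% and 15.7% in Idh2 R140Q MEP. In the middle class it averaged 28.6% against 32.8%, with 41.1% in wild type MEP. Below 20% the order was the other way, 7.12%, 8.14% and 6.87% against 4.44% and 3.82%. None of the 3 classes overlapped between the groups (p = 0.1 each, exact permutation test). At each CpG the measure is set by the same counts as the level. It therefore restates the levels CpG by CpG and is not separate from the differences in level given above.

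Windows of 1 kb were then tested with a quasi-binomial model. A call needed 10 points of difference or more together with an adjusted p below 0.05. Of 45173 windows, 4855 were higher in the double mutant (10.7%) and 1765 were lower (3.91%), 14.7% in all. By order alone, all 3 double mutant libraries lay above both others in 32.1% of windows and below both in 11%. Of the called windows, 99.2% of the higher and 99.7% of the lower did not overlap, so lack of overlap adds little to a call. Higher windows went from a median of 11.7% in Idh2 R140Q MEP to 47.4%. Lower windows went from a median of 71.3% to 33.1%. Both directions held large changes, with 193 windows that rose and 138 that fell by at least 50 points. Leaving out Idh2 R140Q MEP library 2 left 3053 higher and 1087 lower windows.

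**Figure D3:**
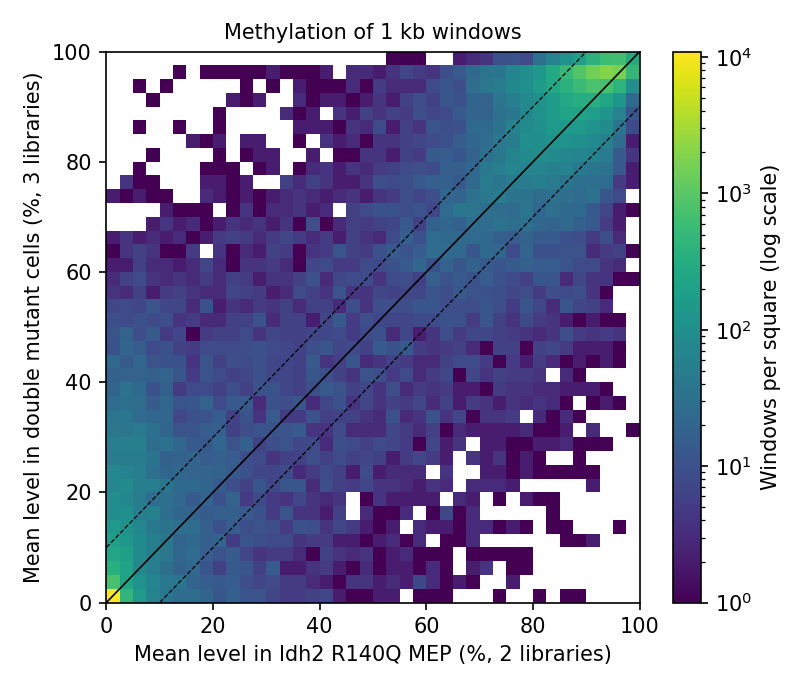
Mean level of 45173 windows of 1 kb in Idh2 R140Q MEP (horizontal, %) and in the double mutant (vertical, %), coloured by the number of windows per square on a log scale. The solid line marks equal levels and the dashed lines a difference of 10 points. Windows spread along the left edge, low in Idh2 R140Q MEP and raised in the double mutant, and a smaller number lies at the lower right.

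The 2 kinds of window differed in where they lay. Windows with more than 60 reference CpGs were called higher in 1032 of 7727 cases (13.4%) and lower in 39 (0.505%). Windows with fewer than 20 CpGs were called higher in 8.61% and lower in 5.65%. Promoter windows were called lower in 1.90% of cases and intron windows in 6.48%. By wild type MEP level, windows below 20% made up 42.4% of those tested and supplied 55.2% of the higher calls. Windows from 20% to 80% made up 17.0% and supplied 58.4% of the lower calls. Higher calls were made at 14.0% of windows below 20%, 13.6% from 20% to 80% and 6.18% above 80%. Lower calls were made at 1.99%, 13.4% and 1.92%. Of the higher windows, 23.2% had a neighbour called in the same direction, and of the lower ones 4.14%, where 10.7% and 3.91% of all windows were called in those directions. A window can have a called neighbour only where an adjacent window was tested, so these shares do not measure clustering.

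At higher windows the median range was 7.20 points over the 3 double mutant libraries and 3.86 over the 2 Idh2 R140Q MEP libraries. The test favours windows with a small spread within groups, so these ranges only describe the called windows. Library 2 was the highest of the 3 in 2319 of 4855. Few windows switched from one end to the other. All 3 double mutant libraries were at 80% or more and both Idh2 R140Q libraries at 20% or less in 6 windows, and the reverse held in 8.

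The 10 libraries outside the comparison entered the calls through the shared estimate of spread, not through the difference tested. A fit to the 5 libraries alone kept 90.6% of the calls. Other settings kept fewer: 73.6% with a replicate block and 71.6% with limma. At 20 reads 54.7% were kept and without CCGG sites 32.0%, where 25673 and 19120 windows were tested. At higher windows the mean over windows was 54.9%, 57.5% and 54.8% in the double mutant and between 31.0% and 37.0% in all other 12 libraries. At lower windows it was 35.6%, 37.2% and 33.8% in the double mutant, 45.4% to 51.2% in the wild type and knockout libraries, and 64.0% in both Idh2 R140Q MEP libraries. The Idh2 R140Q GMP libraries, which were not used in the comparison, stood at 61.6% and 62.5% there against 49.95% and 50.3% in wild type GMP, which also differ from them in X-linked share. Of the lower windows, 131 (7.42%) were called higher in Idh2 R140Q GMP against wild type GMP, where 0.626% of all windows were. Of the windows higher in the double mutant, 15 (0.309%) were. In 1051 of the 1765 lower windows (59.5%) the double mutant also lay at least 10 points below wild type MEP. In 1006 (57.0%) Idh2 R140Q MEP lay at least 10 points above it. The windows were chosen on the difference between these 2 groups, so both counts are partly set by that choice.

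**Figure D4:**
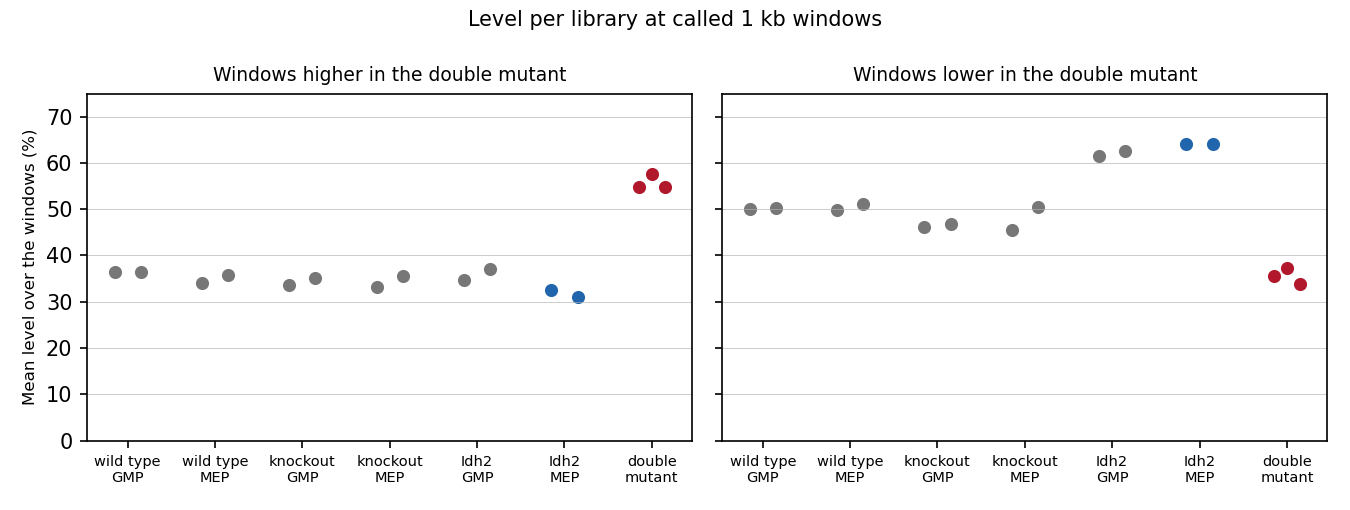
Mean level (%) in each of the 15 libraries (points) over the 4855 windows higher (left) and the 1765 windows lower (right) in the double mutant. The difference between the red and blue libraries chose the windows, and the grey libraries entered only the estimate of spread. On the left the grey libraries stand near the Idh2 R140Q MEP level, and on the right wild type and knockout libraries lie between the 2 groups compared while Idh2 R140Q GMP lie near Idh2 R140Q MEP.

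The Dnmt3a genotypes without the Idh2 mutation were read in another pair of groups. Knockout MEP against wild type MEP, a pair that shares no library with the comparison, gave 113 higher (0.25%) and 130 lower windows (0.288%), and 2 higher (0.0133%) and 16 lower promoters (0.106%). At the windows higher in the double mutant the knockout difference had a median of -0.03 points and was positive in 2404 of 4855 (49.5%), against 60.7% of all windows. At the lower windows its median was -1.94 points, and it was negative in 1014 of 1765 (57.5%), against 35.4% of all windows, whose median was 0.57. The double mutant minus Idh2 R140Q MEP difference was set against the knockout minus wild type MEP difference as an interaction, in which Dnmt3a genotype, malignant state and sex cannot be told apart. It passed at 3185 of 45173 windows (7.05%) and at 1614 of 15045 promoters (10.7%). It passed at 1808 windows without knockout MEP library 1, 1947 without wild type MEP library 2 and 2079 without Idh2 R140Q MEP library 2. For promoters the counts were 901 without knockout MEP library 1, and 1052 and 883 without wild type MEP library 1 and 2.

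The 12 largest gains ranged from 72.9 to 89.6 points. The largest lay in a coding exon of Brsk1, a brain kinase of neuronal polarity (chr7:4658001-4659000), at 95.4%, 92.4% and 96.2% in the double mutant and 3.28% and 6.92% in Idh2 R140Q MEP (adjusted p = 1.65e-06). The Gabra5 promoter, of a GABA receptor subunit (chr7:64764001-64765000), was at 90.3%, 95.4% and 92.5% against 8.53% and 15.2%. Ptger1, a prostaglandin E receptor, was at 91.7%, 89.3% and 93.5% against 13.3% and 3.51%. These gains did not start from one state, since wild type MEP averaged 59.9% at Brsk1, 49.1% at Ptger1, 22.2% at Gabra5 and 66.6% at the promoter of 1700048O20Rik. A window in a coding exon of Pcdh10, a protocadherin (chr3:45184001-45185000), started low everywhere: 77.6%, 75.3% and 75% in the double mutant, 2.94% and 2.75% in Idh2 R140Q MEP, and a mean of 3.41% in wild type MEP. An intergenic window 5754 bp from a start site of Pax3, a developmental transcription factor, was at 78.8%, 66.8% and 82.1% against 1.92% and 4.07%, with 3.23% in wild type MEP. The others lay at Jakmip2, Cacng4, Cdkal1, Evpl, Ephb1 and Itga2b.

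The 12 largest losses had differences between -85.4 and -71.5 points and lay mostly in introns. The window in an intron of Fbxo31, a ubiquitin ligase subunit (chr8:124094001-124095000), was at 3.85%, 2.67% and 0.913% in the double mutant and 93.1% and 82.7% in Idh2 R140Q MEP (adjusted p = 3.57e-07), with 51.3% in wild type and 66.3% in knockout MEP. The window at Fry (chr5:151246001-151247000) was at 1.48%, 2.07% and 3.87% against 85.1% and 88.3%. A window 8932 bp from the start of Il10, an anti-inflammatory cytokine (chr1:132907001-132908000), was at 16.8%, 9.72% and 17.2% against 95.4% and 99.1%. Wild type MEP lay between the groups at these 3 windows. At others it lay near Idh2 R140Q MEP: a window 21543 bp from Cd300a, an inhibitory receptor of myeloid cells, was at 0%, 0.592% and 2.67% in the double mutant, 79.4% and 68.4% in Idh2 R140Q MEP, and 81.0% in wild type MEP. The remaining losses were at C530008M17Rik, Myof, Nceh1, Myo7a, Ccdc6, Tpcn1, Pxn and Itga2b.

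Itga2b carried both. A window at an annotated start site inside the gene (chr11:102317001-102318000) was at 78.0%, 80.3% and 64.5% against 0.741% and 1.29%, and an intron window (chr11:102329001-102330000) was at 16.0%, 9.45% and 5.38% against 94.4% and 88.2%. The Itga2b promoter with the most measured CpGs (8) was at 1.04%, 0.195% and 0% against 1.11% and 1.31% and did not pass the test.

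Promoters pool the CpGs measured up to 1 kb from a gene's start. Of 15045, 1685 were higher (11.2%) and 274 lower (1.82%), 13.0% in all. Counted once per gene symbol, 1535 of 13517 were higher (11.4%) and 207 lower (1.53%). Among the largest gains besides Gabra5 and Itga2b, the Gpr26 promoter, of an orphan receptor, was at 74.3%, 84.6% and 69.6% against 1.25% and 8.54%. The promoter of Gjd2, a gap junction protein of neurons, was at 70.3%, 80% and 68.7% against 2.78% and 1.67%, on 3 CpGs that 2 other gene models share. The largest loss at a protein-coding gene was at Cldn4, a tight junction protein, at 22.2%, 18.3% and 16.4% against 93.2% and 83.8%. Arid3a, a transcription factor of B cells and stem cells, was at 5.71%, 17.4% and 3.73% against 74.3% and 68.0%. Neither overlapped between the groups, which was a condition for being named here.

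Developmental transcription factors were the list with the largest share of higher promoters. Of 74 measured, 40 rose (54.1%) and 0 fell, with a median difference of 12.01 points against 0.17 over all promoters. In wild type MEP 66 of the 74 were below 10%, as were 11052 of all 13517. Without any one of the 5 libraries the count stayed between 37 and 41, and limma called 34. None was lower even at an unadjusted p under 0.05. Over all promoters 11.4% rose.

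Sox11, a neural transcription factor, had the largest gain of the list, and a stretch of its promoter is shown for the density of its CpGs.
Sox11, chr12:28026618-28026667: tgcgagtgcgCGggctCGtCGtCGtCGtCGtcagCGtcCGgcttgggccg
Hoxd11, chr2:74521006-74521268: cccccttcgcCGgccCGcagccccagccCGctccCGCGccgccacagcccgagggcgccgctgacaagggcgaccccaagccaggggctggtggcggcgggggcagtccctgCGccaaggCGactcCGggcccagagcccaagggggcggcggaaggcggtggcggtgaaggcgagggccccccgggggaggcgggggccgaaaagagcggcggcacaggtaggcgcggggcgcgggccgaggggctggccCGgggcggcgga
The whole Sox11 promoter, on 26 CpGs, was at 51.6%, 66.2% and 54.2% in the double mutant and 4.71% and 6.29% in Idh2 R140Q MEP, without overlap (adjusted p = 1.52e-07). Within the stretch the gain was uneven from CpG to CpG, with means of 25.7% at position 17 and 86.5% at position 39 of the stretch. Wild type and knockout MEP averaged 6.02% and 4.66% over the promoter.

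Others of the list showed the same partial gain. Sox2, a factor of stem and neural cells, was at 30.2%, 38.6% and 38.02% against 2.60% and 0.199%. Irx2, a patterning factor, was at 46.2%, 56.0% and 46.9% against 6.22% and 5.38%. Foxc2, a mesenchymal forkhead factor, was at 48.4%, 59.8% and 56.2% against 12.6% and 5.88%. Double mutant means of the 40 lay between 14.3% for Foxl2 and 57.3% for Sox11, so none was fully methylated. Double mutant library 2 was well above the other two at Foxe1 (24.2%, 45.1% and 23.3%) and Tbx20 (24.9%, 49.4% and 32.7%). Tbx20 was not called without Idh2 R140Q MEP library 1, nor Foxl2 without double mutant library 2.

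In the Hox clusters, which encode body-axis factors and of which several A and B members act in blood progenitors, 17 of 35 promoters rose (48.6%) and 1 fell. Hoxd11, whose stretch stands beside that of Sox11, was at 48.6%, 60.4% and 52.0% against 10.5% and 11.5%. The blood-expressed Hoxa9 was at 9.94%, 18.3% and 10.3% against 0.231% and 1.42% (adjusted p = 6.38e-04), and Hoxa7 at 7.27%, 11.4% and 21.4% against 0.619% and 1.45%. Hoxa9 was not called without double mutant library 2, nor Hoxa7 without library 3. Hoxb5, a marker of long-term stem cells, fell from 86.9% and 84.7% to 44.4%, 50% and 64.3% on 3 CpGs. Without any one library 14 to 17 promoters rose. The fall of Hoxb5 passed without double mutant library 3, and neither in the other fits that left out a library nor with limma, which called 12 higher and 0 lower.

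Wnt, Hedgehog and BMP genes rose at 14 of 47 promoters (29.8%) and fell at 0, with 2 lower at an unadjusted p under 0.05. limma also called 14 higher and 0 lower. The receptor Fzd10 was at 41.3%, 52.4% and 45.8% against 4.13% and 1.64%. The Wnt inhibitor Sfrp1 was at 47.3%, 56.4% and 44.8% against 2.86% and 3.23%. Among ligands, Wnt3a was at 24.8%, 32.2% and 28.1% against 5.85% and 5.58%, and the Hedgehog effector Gli2 at 25.9%, 37.2% and 34.6% against 3.45% and 6.59%. None of these 4 overlapped, as was so for nearly all called windows.

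**Figure D5:**
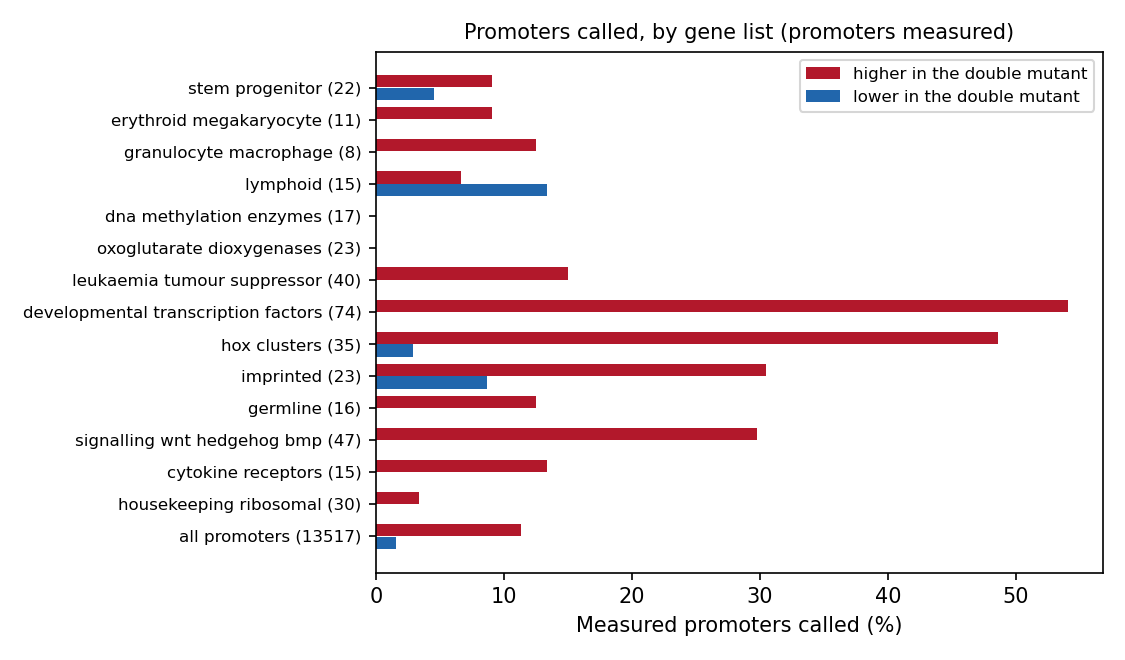
Share of measured promoters (%, 1 per gene symbol) called higher (red) or lower (blue) in the double mutant for 14 gene lists and for all promoters, with the number of promoters measured in brackets. Developmental transcription factors reach 54.1% and Hox genes 48.6%, against 11.4% of all promoters.

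Imprinted genes, methylated on the copy from 1 parent, had 7 higher and 2 lower promoters of 23 (30.4% and 8.70%, against 11.4% and 1.53% of all promoters). Dio3, a thyroid hormone inactivating enzyme, was at 57.2%, 67.1% and 69.2% against 7.71% and 9.78%. Snrpn, a splicing protein gene, was at 92.3%, 86.5% and 82.8% against 38.5% and 53.6%, a gain that was not called without Idh2 R140Q MEP library 1. Slc22a3, an organic cation transporter, fell from 30.3% and 32.1% to 1.58%, 0.709% and 2.09%, and Nap1l5 fell from 93.7% and 81.2% to 59.0%, 52.6% and 29.4%. Strains were labelled alike, so parental copies were not separated.

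Of 40 leukaemia and tumour suppressor genes, 6 promoters rose and 0 fell (15% higher, near the 11.4% of all promoters), with 3 lower at an unadjusted p under 0.05 and 5 higher and 0 lower by limma. Wt1, a transcription factor often altered in leukaemia, was at 57.0%, 76.8% and 63.7% against 15.7% and 14.6%. Id4, an inhibitor of basic helix-loop-helix factors, was at 36.8%, 46.2% and 38.4% against 1.45% and 0.531%. The adhesion gene Cdh1 rose from 23.5% and 18.8% to 42.4%, 37.7% and 29.8%. Mgmt, a DNA repair gene, varied most within the double mutant, at 10.1%, 16.1% and 39.3% against 0% in both others, on 3 CpGs. Sfrp1 and Npm1 were the other 2. Npm1, on 4 CpGs, was at 11.5%, 21.9% and 23.8% against 0% in both Idh2 R140Q MEP libraries. Wild type MEP were at 32.4% and 15% there and knockout MEP at 0%, so the double mutant was not above wild type. Without Idh2 R140Q MEP library 2 the count fell to 3 of 40 (7.5%), and Cdh1, Mgmt and Npm1 were not called.

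Counts of higher promoters in the blood lineage lists were near the share of all promoters (11.4% higher, 1.53% lower). In the stem and progenitor list 2 of 22 rose (9.09%) and 1 fell, all 3 of them Hox genes named above. In the erythroid and megakaryocyte list 1 of 11 rose (9.09%): Ank1, a red cell skeleton protein, at 23.6%, 24.8% and 19.3% against 4.21% and 3.94%. In the granulocyte and macrophage list 1 of 8 rose (12.5%): Fcgr3, which encodes one of the receptors recognised in the sort, at 22.0%, 26.9% and 22.1% against 9.73% and 9.91%, though not by limma. Gfi1, a repressor in myeloid and stem cells, was at 8.69%, 8.83% and 11.2% against 0.906% and 0.499% (adjusted p = 7.35e-06), under the 10 points needed for a call. In the lymphoid list of 15, Bcl11b rose to 23.2%, 29.3% and 16.9% from 2.88% and 1.04%, and Klra3 and Vpreb1 fell (13.3%). Klra3 was not called without Idh2 R140Q MEP library 2. Vpreb1 (adjusted p = 0.0172 in the quasi-binomial model) was not called with limma (adjusted p = 0.102), without double mutant library 3 (0.0612), or without Idh2 R140Q MEP library 1 (0.0626) or 2 (0.113). At 20 reads its difference was 0.142 points. The defining MEP promoters measured, Klf1, Zfpm1, Itga2b and Pf4, were between 0% and 1.86% in all 5 libraries. Of the GMP markers, Gfi1 is given above, Cebpa was between 0.0664% and 0.863% and Prtn3 between 0% and 0.193%. Irf8 was at 10.9%, 10.5% and 8.99% against 13.7% and 15.5%, with 4.04% in wild type GMP and 8.24% in wild type MEP. Cebpe was at 67.7%, 70.8% and 64.8% against 75.6% and 60%, with 38.1% in wild type GMP and 48.3% in wild type MEP. Of the stem cell markers measured, Mecom was at 5.16%, 10.2% and 5.05% against 0.806% and 0%. It passed the adjusted p of the quasi-binomial model (0.0031) but lay under the 10 points needed for a call. Hlf, Prdm16 and Meis1 were between 0% and 3.73% in all 5 libraries and did not pass.

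The sorted cell type was also read at windows that differ between normal lineages. In all 94 windows (0.208%) were called between wild type MEP and wild type GMP. At 62 windows higher in wild type MEP than in wild type GMP, the double mutant was at 77.9%, 78.8% and 76.4%, Idh2 R140Q MEP at 85.1% and 83.3%, wild type MEP at 63.4% and 59.0%, and wild type GMP at 27.2% and 27.6%. At 32 windows lower in wild type MEP, the double mutant was at 83.0%, 83.9% and 81.8% and Idh2 R140Q MEP at 58.4% and 50.9%, with wild type MEP at 60.1% and 67.8% and wild type GMP at 91.0% and 92.2%. On the first set the double mutant lay far from wild type GMP, and on the second it lay between wild type MEP and wild type GMP, as did knockout MEP at 71.1% and 77.9%. Mutant GMP were also away from wild type GMP on the first set, at 54.4% and 59.3% in knockout GMP and 53.4% and 54.0% in Idh2 R140Q GMP. On the second set they were at 77.2% and 78.0%, and at 88.7% and 89.8%. Distance from wild type GMP therefore does not show the sorted cell type. Wild type MEP is far from wild type GMP on both sets by the choice of windows. Of those 32 windows 22 were called higher in the double mutant, and of the 62 windows 14 were called lower, against 10.7% higher and 3.91% lower of all windows. The part of cell composition in the other differences was not tested.

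Enzymes of the methylation cycle showed no called promoter. None of 17 genes of DNA methylation and demethylation and none of 23 other oxoglutarate-dependent dioxygenases was called in either direction by the quasi-binomial model or by limma, against 11.4% higher over all promoters. At an unadjusted p under 0.05 the first list held 0 higher and 2 lower promoters and the second 5 higher and 2 lower. Of these, 2 and 6 promoters also passed the adjusted p but differed by less than 10 points. Without 1 library up to 2 dioxygenase promoters were called higher. Dnmt1, Dnmt3b and Tet2 stayed at 0% to 2.06% in all 5 libraries. Tet3, one of the demethylating dioxygenases, was at 0%, 1.06% and 0.685% against 9.94% and 8% (adjusted p = 1.43e-04), a difference of -8.39 points and so under the size needed for a call. D2hgdh, which degrades 2-hydroxyglutarate, was at 74.2%, 62.9% and 63.8% against 73.9% and 80.6% and overlapped. Plod2, a collagen lysine hydroxylase, was at 8.48%, 11.7% and 13.0% against 3.82% and 0.281%. Among the remaining lists, ribosomal protein genes rose at 1 of 30 (Rps24), germline genes at 2 of 16 (Stag3 and Sycp2) and cytokine receptors at 2 of 15 (Il10ra and Lepr), with 0 falls in each by either tool and 2, 0 and 1 lower at an unadjusted p under 0.05. By limma no germline promoter was called. Rps24, Stag3, Sycp2 and Il10ra each lost their call without at least 1 library. Lepr, the leptin receptor, was at 33.6%, 39.3% and 40.7% against 10.7% and 2.65%.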

How the data were processed

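The authors' deposited files hold counts, the methylated reads and all reads at each cytosine of a CpG, from reduced representation bisulfite sequencing of 15 libraries. A column of methylated fractions, deposited by the authors, is the ratio of these counts and served only as a check. Reads were aligned with BSMAP 2.74 to mm9, per the submitters' processing notes. How reads were trimmed, whether duplicates were removed and the conversion rate were not given in the sources used here. Counts stop at 65535, and 15 CpGs that reached it were left out.

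Strands of a CpG were added. Autosomal CpGs with at least 10 reads in the 5 libraries were kept, grouped into 1 kb windows (45173) and promoters within 1 kb of a gencode vM1 start site (15045), each with at least 3 CpGs. A level is methylated over all reads. The quasi-binomial logistic model had 1 mean for each of 7 groups over all 15 libraries, a squeezed dispersion (median 2.41) and an F test with Benjamini-Hochberg adjustment over all regions. It was tested on simulated data. Library means were compared by exact two-sided permutation tests. Python 3.11.15 and limma 3.58.1 (an alternative) were used. Alternatives were 20 reads, 500 bp windows, other CpG sets, a difference of 25 points, the 5 libraries alone, limma, a replicate block and leaving out each library. Replicates were compared with sampling noise, and each pair differed by more (mean chi-square per window of 3.45 to 5.94, where sampling alone gives about 1).

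Named windows are the 12 largest rises and falls, and named promoters the 8 largest in each direction, without overlap, with every called promoter of 14 gene lists. Of these, examples are printed. The libraries, lists and rules were chosen with earlier results of these data known. P-values measure the spread between these libraries only.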

Additional observations from a re-analysis of the deposited data

Results flagged for a closer look

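The double mutant minus Idh2 R140Q MEP difference and the knockout minus wild type MEP difference were unequal at 23 of the 24 windows with the largest differences in the first pair, by the interaction term of the quasi-binomial model, which passed at 7.05% of all windows. The windows were chosen on the first difference, which is part of the interaction, so the count is a description. Malignant state, sex and Dnmt3a genotype cannot be told apart in it. Among the gains, the adjusted p of the interaction was 2.41e-04 at Brsk1, 3.74e-04 at Ptger1, 4.99e-04 at Jakmip2, 7.40e-05 at Gabra5, 4.32e-04 at 1700048O20Rik and 1.14e-04 at Cacng4. It was 6.43e-04 at Cdkal1, 2.45e-04 at Evpl, 0.00754 at Ephb1, 0.00743 at Itga2b, 7.75e-04 at Pcdh10 and 0.0353 at Pax3. Knockout MEP stood below wild type MEP at most of these gains, for example at 7.24% against 49.1% at Ptger1, but at 6.13% against 3.41% at Pcdh10.

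Among the losses the adjusted p of the interaction was 1.56e-05 at Fbxo31, 4.23e-04 at Fry, 0.0164 at Il10, 4.82e-05 at Itga2b, 0.00396 at C530008M17Rik and 0.00304 at Myof. It was 0.0393 at Nceh1, 4.99e-04 at Myo7a, 4.54e-04 at Cd300a, 1.43e-04 at Tpcn1 and 0.00131 at Pxn. At Ccdc6 the interaction did not pass (adjusted p = 0.0961), with knockout MEP at 26.1% and wild type MEP at 63.2%.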

How the results depend on the processing

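Mean methylation by class kept its direction under all alternatives run except 1: without CpGs of CCGG sites the class from 20% to 80% was at -1.04 points, with 2.30 points over all CpGs and 1.97 points above 80%. Weighting by reads gave 8.33 points over all CpGs, but 3.19, 2.94 and 3.21 points within the classes below 20%, from 20% to 80% and above 80%. Before G, outside CCGG sites, leaving out 1 library gave -0.883 to 0.0729 points, the highest without double mutant library 3. At 20 reads the Vpreb1 promoter, on fewer CpGs, differed by 0.142 points.

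Higher and lower windows numbered 1783 and 904 at 25 points, 2873 and 975 of 25673 at 20 reads, 3234 and 1068 of 29250 with 10 reads in all 15 libraries, 1928 and 473 of 19120 without CCGG sites, and 9721 and 4127 of 113500 with at least 1 CpG per window. As shares of the windows tested, higher calls stayed between 8.56% and 11.2% and lower calls between 2.47% and 3.80% in the last 4. limma called 1171 lower windows and 155 lower promoters. Promoters numbered 693 higher and 136 lower at 25 points, and 154 lower at 20 reads. Leaving out 1 library gave 3053 to 4638 higher and 1087 to 1676 lower windows, the lowest of each without Idh2 R140Q MEP library 2. The interaction passed at 1808 to 2996 windows and 883 to 1723 promoters when 1 library was left out, at 1944 windows and 792 promoters with limma, and at 1821 windows and 928 promoters at 20 reads. Shared replicate numbers did not pair the libraries (correlations of deviations of -0.00204 and 0.00452), and with a replicate block the interaction passed at 1965 windows.

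Depth was lowest in Idh2 R140Q MEP library 1, at a median of 27 reads per CpG. A difference under 10 points was not called, whatever its p.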

Other observations

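Some genes had many called windows assigned to them, a pattern looked for after the values were seen. Intergenic windows were assigned to the gene of the nearest start site, so the windows of a gene can lie far outside it. Those of Otx2 spanned chr14:49199001-49294000. Over all windows 10.7% were higher and 3.91% lower. All 7 tested windows of Nxph1, a neurexin ligand, were higher, with a mean of 34.4% in the double mutant against 8.28% in Idh2 R140Q MEP. Nr2f2, a nuclear receptor of vessels and mesenchyme, had 10 of 18 windows higher and 1 lower (34.2% against 5.15% over the higher ones). Pax2 had 10 of 23 higher, Otx2 7 of 10 and Msx1 9 of 13, and Camta1, a long gene, 11 of 36. The Fcgr3 locus had 10 of 17 windows higher, at 29.8% against 12.2%.

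The largest counts of lower windows per gene were smaller. Such counts do not show whether the windows were adjacent. Sept9, a septin, had 9 of 20 windows lower and none higher, at 24.8% in the double mutant, 53.9% in Idh2 R140Q MEP and 35.2% in wild type MEP. Gata2, a stem and progenitor transcription factor, had 4 of 11 lower, at 8.15% against 24.8%, with 15.6% in wild type MEP, 30.05% in Idh2 R140Q GMP and 19.8% in wild type GMP. Nfix, a stem cell factor, had 4 of 12 lower, at 12.9% against 59.6%, with 22.3% in knockout MEP and 40.9% in wild type MEP. Prdm16, a stem cell regulator, had 4 lower of 29, and its 3 higher windows were near the overall share.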
